A study of Solanum lycopersicum with 12 samples.

Results

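The step from mature green to breaker was followed in the fruit wall of a tomato (Solanum lycopersicum) mutant called cr. At the breaker stage the first colour shows on a fruit that was fully grown and green before. RNA sequencing of pericarp, the fleshy fruit wall, gave 3 libraries of the mutant (cr) at mature green, labelled 35, and 3 libraries of the mutant at breaker, labelled 38. These 6 libraries are among 12, and the other 6 are of a wild type (A), here WT, at the same stages. The labels name neither the mutated gene, the allele nor the parent variety, and do not say what 35 and 38 count. Nor do they tell whether separate plants or fruits gave the 3 replicates of a stage, and a p-value here covers only the scatter among libraries, which could be technical. All genes that passed a filter on low counts were tested, 19664 of 35882 features in the table, and they were described by classes made from the deposited gene descriptions and transcription factor or protein family names.

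As background, tomato is a climacteric fruit: ripening starts with a burst of the gas ethylene, which is made from methionine by ACC synthase (ACS) and ACC oxidase (ACO) and which raises its own synthesis. Ethylene is sensed by receptors. Transcription factors such as NOR and CNR turn on genes for softening of the wall, the red carotenoid lycopene and aroma. Meanwhile chloroplasts lose chlorophyll and become chromoplasts. DNA demethylation by DML2 accompanies this change.

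Counts in the cr libraries summed to between 17852286 and 19426192 per library. Levels are in CPM, counts scaled to a common library total, and are printed in the order of replicates 1, 2 and 3. Changes are log2 fold changes of breaker against mature green, each with its standard error (SE), from a quasi-likelihood fit in edgeR, with p-values adjusted over all genes tested (Benjamini-Hochberg). A gene is said to have risen or fallen where its adjusted p was under 0.05. Between the stages 5645 genes, 28.7% of those tested, passed: 2997 (15.2%) rose and 2648 (13.5%) fell. Without factors that scale libraries for their composition, the split was 2143 that rose and 3579 that fell, with the median of all genes at -0.10. Of those that rose, 894 did so by at least 1 on the log2 scale and 169 by at least 3, and of those that fell 987 and 97 did. The median change was 0.63 among genes that rose, -0.78 among genes that fell and -0.003 among all genes tested. In 5480 of the 5645 genes (97.1%) the 3 libraries of one stage did not overlap the 3 of the other, which held in 45.1% of all genes tested. Another 2238 genes had an unadjusted p under 0.05 only. The called share lay between 27.3% and 30.4% on chromosomes 1 to 12; it was 10% of the 10 tested genes placed on chromosome 0, which holds sequence not assigned to the others.

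The breaker libraries of cr were not alike in how far they had moved. Relative to the mature green mean, the median shift of genes that rose was 0.51 in breaker replicate 1, 0.64 in replicate 2 and 0.70 in replicate 3. Among genes that fell it was -0.61, -0.85 and -0.89. Replicate 1 was the lowest of the 3 breaker libraries in 64.3% of genes that rose and the highest in 66.4% of genes that fell. On the first principal component of the 6 libraries, which held 67.4% of the variance, breaker replicate 1 scored 30.1 and the other two 62.6 and 66.2, against -52.1, -46.4 and -60.4 at mature green. Without replicate 1, 3057 genes rose and 2928 fell, 5985 in all. Among the mature green libraries, replicate 3 was the lowest in 54.8% of genes that rose and the highest in 49.1% of genes that fell. Without it 3691 genes passed, 1958 that rose and 1733 that fell, and without breaker replicate 3 the count was 3768. In pericarp, a mixed tissue, fewer cells of a type and less RNA per cell cannot be told apart for any of these values.

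**Figure D1:**
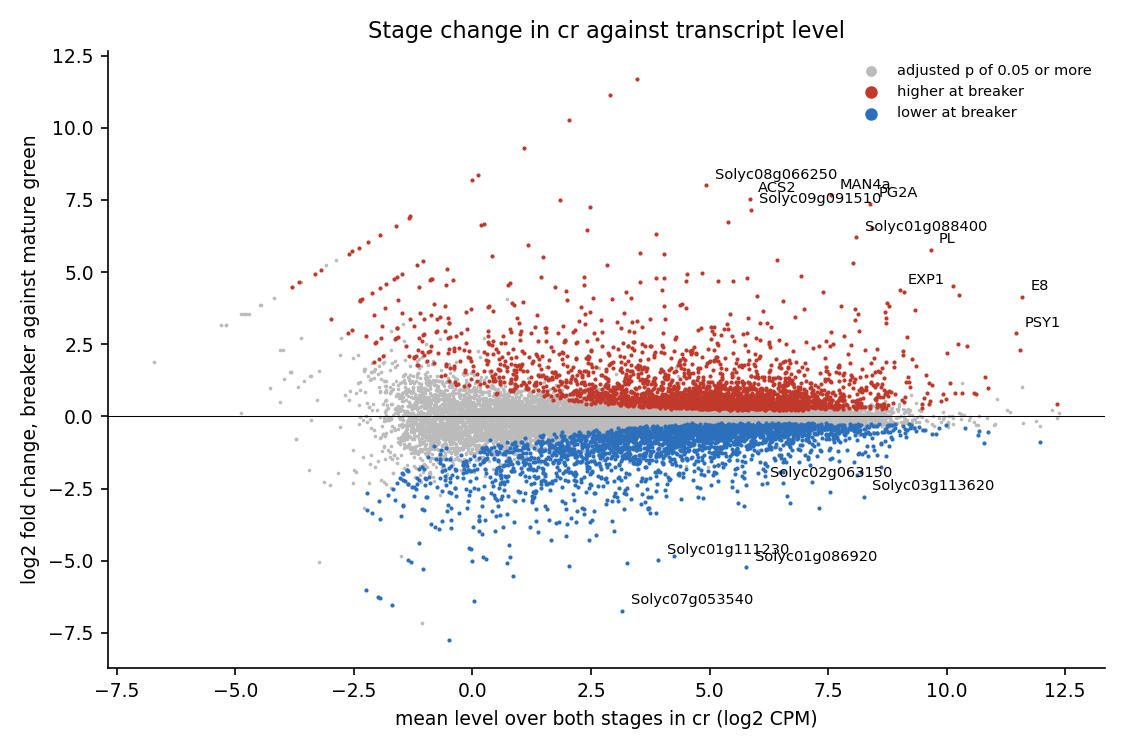
Log2 fold change between mature green and breaker in cr (vertical axis) against the mean level of both stages in log2 CPM (horizontal axis), 1 point per tested gene; 5 genes with no count in the cr libraries have no point. Red points are the 2997 genes that rose, blue points the 2648 that fell and grey points the rest; E8, with 4.14, and PSY1, with 2.89, stand at the abundant end.

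Among regulators of ripening, 7 of 10 genes chosen by name rose and 1 fell. The NAC factor NOR (Solyc10g006880, chr10:1191950-1194846 on the SL4.0 build) is known from a mutant whose fruit does not ripen. Its level was 162, 137 and 66.7 CPM at mature green and 438, 716 and 689 CPM at breaker, a change of 2.33 (SE 0.30, adjusted p = 0.000134). The lowest breaker library, replicate 1, still stood above every mature green library. CNR (Solyc02g077920, chr2:40728780-40731339), an SBP-box factor known from a colourless non-ripening epimutant, went from 109, 85.1 and 71.2 CPM to 274, 527 and 380.1 CPM, a change of 2.16 (SE 0.24, adjusted p = 4.21e-05). DML2 (Solyc10g083630, chr10:62566507-62577468), the DNA demethylase, had 411, 418 and 284 CPM at mature green and 1128, 2043 and 1925 CPM at breaker and rose by 2.19 (SE 0.24, adjusted p = 4.07e-05). Each of these genes had separate ranges at the 2 stages. AP2a, a repressor of ethylene synthesis in ripening fruit, rose by 2.42 (SE 0.31), and FUL1, a MADS-box factor, by 1.29 (SE 0.14). NOR-like1 rose by 0.34 (SE 0.09, adjusted p = 0.00927). TAGL1, a MADS-box factor of fruit expansion and ripening, passed narrowly at 0.23 (SE 0.08, adjusted p = 0.0425), a call lost when 1 of several libraries was left out. FUL2 had 99.1, 83.4 and 97.8 CPM and 101, 98.6 and 96.4 CPM (adjusted p = 0.544), and HB1, a homeobox factor, 105, 102 and 117 CPM and 115, 85.1 and 105 CPM (adjusted p = 0.646), with overlapping stages. GLK2 (Solyc10g008160), the chloroplast regulator behind green shoulders, fell from 7.78, 5.71 and 13.8 CPM to 2.94, 1.72 and 2.44 CPM, a change of -1.94 (SE 0.32, adjusted p = 0.000743).

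**Figure D2:**
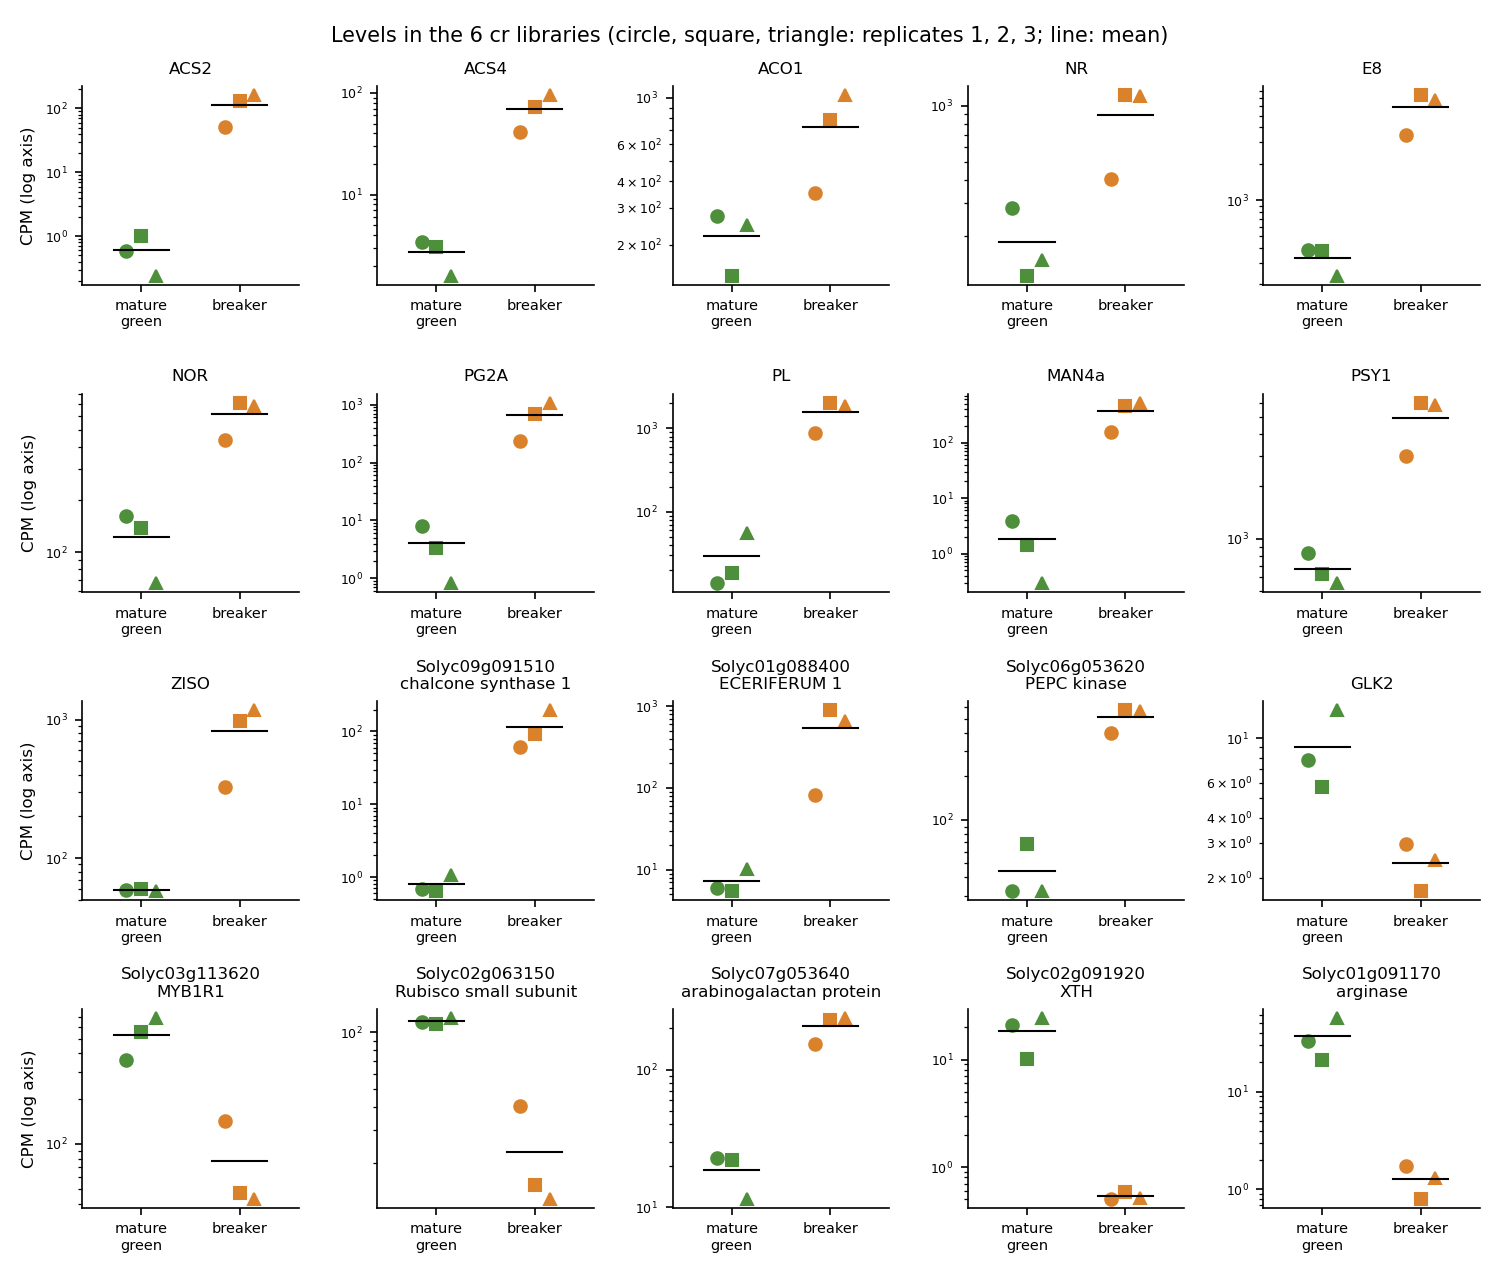
Levels of 20 genes in the 6 cr libraries in CPM on a log axis, mature green on the left and breaker on the right. Symbols mark replicates 1 to 3, which are not known to be paired across stages, and lines mark means. Ranges of the stages do not overlap in any of the 20 genes, and breaker replicate 1 is the breaker library nearest to mature green in all but 1 of them, the XTH gene Solyc02g091920.

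Transcription factor families split in both directions. AP2 domain genes, which hold the ethylene response factors, had 15 genes that rose and 18 that fell of 79 tested, with a median change of -0.34. NAC genes (family NAM) had 10 that rose and 6 that fell of 42. Homeobox genes had 5 and 5 of 22, and WRKY genes 9 and 11 of 44. MYB genes had 12 and 15 of 103, a share of called genes of 26.2%, close to that over all genes. SBP genes had 3 that rose and 6 that fell of 15, and CCT genes, which hold the CONSTANS-like factors, 4 and 9 of 22. Heat stress factors had 7 and 3 of 19, and bZIP genes 9 and 3 of 40. The called share of the bZIP genes, 30%, was also close to that over all genes. B3 genes had few calls, with 0 that rose and 2 that fell of 37.

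An AP2-like gene, Solyc11g010710, went from 1.03, 0.695 and 0.777 CPM to 4.76, 14.5 and 11.7 CPM (log2 change 3.62, SE 0.41, adjusted p = 5.15e-05). WRKY transcription factor 35, Solyc02g021680, went from 1.57, 1.09 and 0.631 CPM to 11.2, 20.96 and 25.1 CPM (log2 change 4.11, SE 0.41, adjusted p = 2.49e-05). In both genes every breaker library lay above every mature green library. The NAC gene Solyc05g007770 rose by 2.299 (SE 0.30) and the NAC gene Solyc11g017470 by 1.44 (SE 0.17). B-box protein 22, Solyc12g089240, rose by 1.997 (SE 0.18), and HY5, Solyc08g061130, the bZIP factor of light signalling, by 1.77 (SE 0.25). The heat stress factor Solyc06g053960 rose by 1.11 (SE 0.15) and auxin response factor 2A, Solyc03g118290, by 1.19 (SE 0.22).

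On the falling side, the MYB-related factor MYB1R1, Solyc03g113620 (chr3:58115004-58116605), had 361, 549.7 and 683 CPM at mature green and 142, 47.1 and 43.3 CPM at breaker. It fell by 2.78 on the log2 scale (SE 0.40, adjusted p = 0.000268), or by 3.56 without breaker replicate 1. R2R3 MYB factor 61, Solyc01g102340, fell by 2.49 on the log2 scale (SE 0.21), with 13.4, 14.9 and 20.5 CPM before and 2.79, 2.63 and 3.24 CPM after. CONSTANS-like 4, Solyc12g096500, fell by 1.803 (SE 0.24), SBP factor 15, Solyc10g078700, by 1.65 (SE 0.24) and the GRAS factor Solyc04g014830 by 2.57 (SE 0.38). A leucine zipper homeobox gene, Solyc02g087840, fell by 3.27 (SE 0.40). A further group was high in mature green replicate 1. Ethylene response factor Solyc12g009240 had 17.5, 3.57 and 2.96 CPM and 0.203, 0.375 and 0.0568 CPM, and its change of -5.18 (SE 0.99) was -3.89 without mature green replicate 1 and -5.84 without breaker replicate 2. WRKY33, Solyc09g014990, had 15.9, 2.68 and 6.75 CPM and 0.811, 0.858 and 0.284 CPM, and its change of -3.67 (SE 0.78) was -2.83 without that library. WRKY53, Solyc08g008280, a factor of defence and senescence in Arabidopsis, had 46.4, 19.9 and 21.6 CPM and 6.69, 2.63 and 3.58 CPM (log2 change -2.76, SE 0.48, adjusted p = 0.00103). In all 3 the stages did not overlap, and the mature green level rested most on 1 library, whose part in the result was not tested beyond leaving it out.

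**Figure D3:**
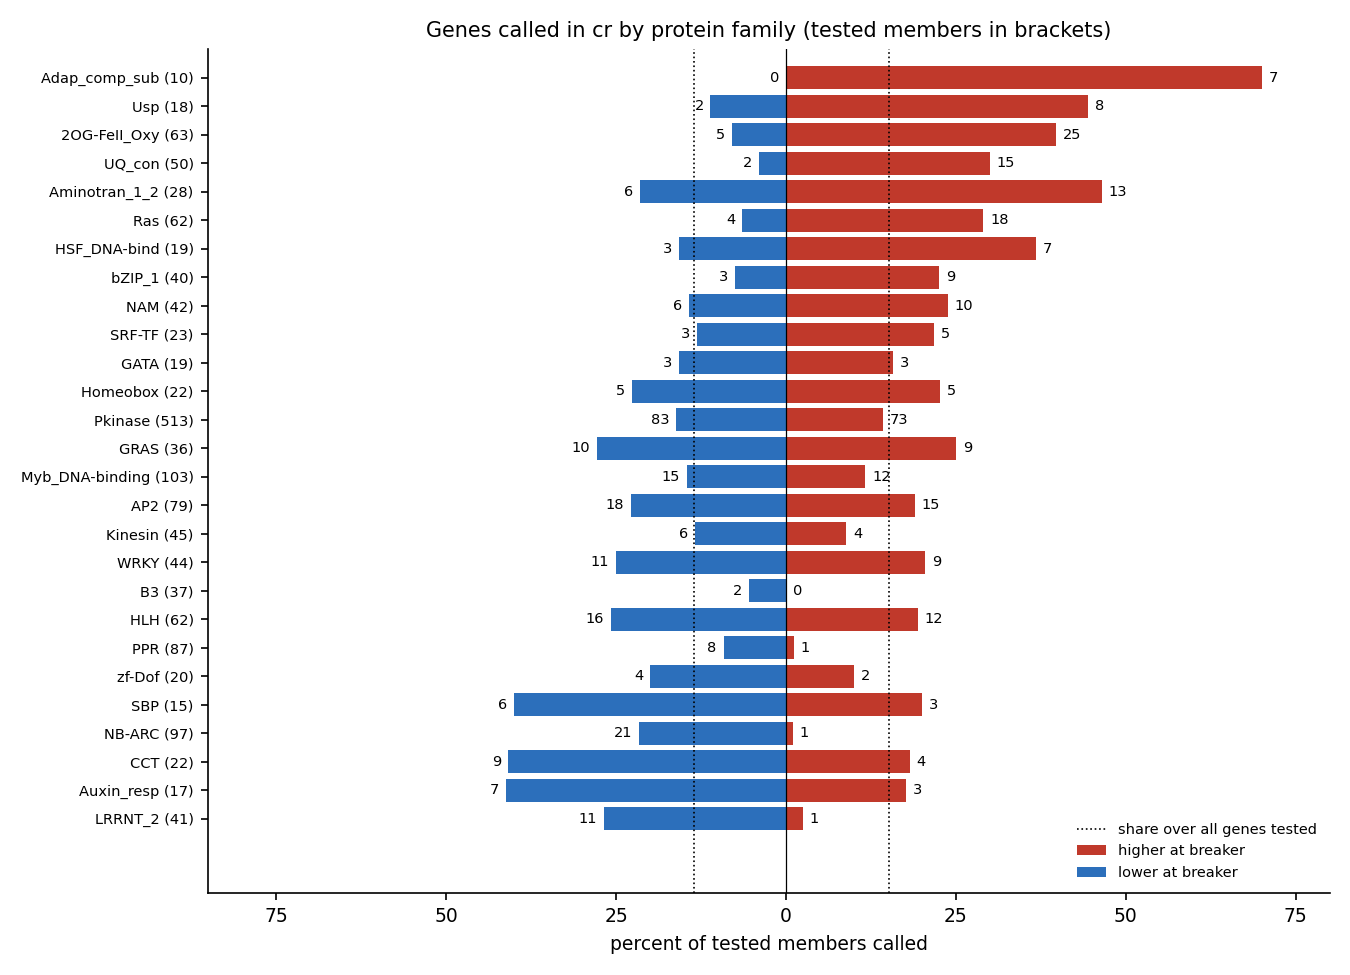
Percent of tested members of 27 protein families that rose (red, right) or fell (blue, left) in cr; numbers at the bars are gene counts, numbers in brackets are tested members, and dotted lines mark the shares over all genes tested (15.2% and 13.5%). NB-ARC genes had 1 that rose and 21 that fell, and genes of the 2OG-FeII_Oxy family had 25 and 5.

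Genes of ethylene synthesis rose more often than they fell in the mutant. Of 16 enzymes of this class, 7 rose and 3 fell, with a median of 0.31. ACS2 (Solyc01g095080, chr1:78715089-78718062), the ACC synthase of the ripening burst, had 0.587, 0.992 and 0.243 CPM at mature green and 51.3, 129 and 162 CPM at breaker. Its change was 7.54 (SE 0.99, adjusted p = 0.00015), and all mature green libraries were below 1 CPM. ACS4 (Solyc05g050010, chr5:59267208-59270525), which acts beside it, went from 3.43, 3.08 and 1.602 CPM to 41.03, 72.4 and 95.3 CPM (log2 change 4.68, SE 0.49, adjusted p = 3.14e-05). ACS1A went from 11.1, 22.03 and 16.5 CPM to 73.3, 67.4 and 134 CPM (log2 change 2.47, SE 0.33, adjusted p = 0.000187). All 3 synthases were separated between the stages. The synthase Solyc08g008110 went the other way, from 41.7, 29.7 and 25.8 CPM to 7.801, 6.75 and 9.71 CPM (log2 change -2.002, SE 0.19, adjusted p = 1.96e-05). ACO1, the main ACC oxidase of fruit, had 272, 142 and 248 CPM and 351, 789 and 1033 CPM (log2 change 1.71, SE 0.35, adjusted p = 0.00309), so that breaker replicate 1 stood just above the highest mature green library. ACO3 rose from 4.55, 1.49 and 3.01 CPM to 6.48, 15.5 and 27.5 CPM, by 2.44 (SE 0.57), or 1.86 without breaker replicate 3. ACO1 and ACO3 each overlap a feature counted on the opposite strand, and the strand setting of the counting is not given. Over the 12 libraries the overlapping feature had 2135 counts, against 113506 for ACO1 and 2345 for ACO3, so this limit bears mostly on ACO3. ACO4 had 28.9, 25.4 and 32.5 CPM and 30.5, 18.7 and 47.6 CPM with overlapping stages (adjusted p = 0.673).

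Receptors and signalling genes of ethylene had 9 that rose and 1 that fell of 21. The receptor NR (Solyc09g075440, chr9:63350712-63357286), whose dominant mutant never ripens, had 283, 122 and 148 CPM at mature green and 402, 1145 and 1129.6 CPM at breaker (log2 change 2.27, SE 0.37, adjusted p = 0.000692). The receptor ETR4 (Solyc06g053710) went from 286, 143 and 178 CPM to 475, 894 and 871 CPM (log2 change 1.88, SE 0.27, adjusted p = 0.000284). In both receptors breaker replicate 1 was well below the other breaker libraries but above all mature green libraries. ETR2 rose less, by 0.52 (SE 0.11), and ETR1 had 54.6, 55.7 and 57.3 CPM and 56.1, 55.9 and 60.5 CPM (adjusted p = 0.731). EIN2, the central transducer, and the downstream factors EIL1, EIL3 and EIL4 did not pass, with adjusted p of 0.445, 0.74, 0.128 and 0.177. EIL2 fell by 0.57 on the log2 scale (SE 0.12). The F-box proteins EBF1 and EBF2 target such factors for breakdown. EBF2 went from 158, 46.7 and 65.3 CPM to 212, 247 and 339 CPM, by 1.56 (SE 0.36), or 2.25 without mature green replicate 1. EBF1 passed at 1.103 (SE 0.32, adjusted p = 0.0221) with overlapping stages, and its adjusted p was 0.0652 to 0.0864 without any 1 of 4 cr libraries, replicates 2 and 3 of each stage.

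E8 and E4, known for their response to ethylene, rose. E8 (Solyc09g089580, chr9:65401889-65404136), a dioxygenase that is a classic ripening marker, had 382, 377 and 236 CPM at mature green and 3437, 7427 and 6744 CPM at breaker (log2 change 4.14, SE 0.34, adjusted p = 7.68e-06). E4 (Solyc03g111720), a methionine sulfoxide reductase, went from 105, 44.2 and 70.4 CPM to 358, 1037 and 911 CPM (log2 change 3.396, SE 0.39, adjusted p = 5.82e-05). Another dioxygenase, Solyc03g095900, went from 24.5, 39.9 and 92.9 CPM to 622, 1093 and 1411 CPM, by 4.31 (SE 0.53), or 5.01 without mature green replicate 3. For all 3 the lowest breaker library exceeded the highest mature green library several times over. They belong, E4 apart, to the 2OG-FeII_Oxy family of dioxygenases, of which 25 rose and 5 fell of 63 tested, with a median of 0.43.

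Enzymes that loosen the wall rose by some of the widest margins, while the families they belong to moved in both directions. The polygalacturonase PG2A (Solyc10g080210, chr10:60670766-60676673), which cuts pectin, had 7.88, 3.37 and 0.825 CPM at mature green and 233, 696 and 1074 CPM at breaker (log2 change 7.37, SE 0.90, adjusted p = 9.21e-05). The pectate lyase PL (Solyc03g111690, chr3:56752862-56755013), needed for softening, had 13.8, 18.3 and 55.1 CPM and 882, 2038 and 1868 CPM (log2 change 5.78, SE 0.66, adjusted p = 5.55e-05). The endo-mannanase MAN4a (Solyc01g008710, chr1:2702330-2705250) had 3.87, 1.44 and 0.291 CPM and 153, 458 and 523 CPM (log2 change 7.66, SE 0.81, adjusted p = 3.54e-05). None of these 3 had overlapping stages. Without mature green replicate 1 the change was 8.31 for PG2A and 8.77 for MAN4a, and without mature green replicate 3 it was 6.63 for PL. The expansin EXP1 (Solyc06g051800, chr6:33251262-33253086), which slackens cellulose and hemicellulose contacts, went from 38.6, 62.7 and 41.7 CPM to 814, 1064 and 1078 CPM (log2 change 4.37, SE 0.26, adjusted p = 1.38e-06). The endoglucanase CEL2 rose by 3.02 (SE 0.45) and the beta-galactosidase TBG4 by 1.02 (SE 0.21). All 6 softening genes chosen by name rose. A second pectate lyase, Solyc09g091430, went from 0.294, 0.347 and 0.437 CPM to 13.2, 36.9 and 37.3 CPM (log2 change 6.31, SE 0.51, adjusted p = 7.35e-06), and expansin-like B1, Solyc08g077330, rose by 2.01 (SE 0.26).

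Around these, polygalacturonases had 4 that rose and 6 that fell of 21, pectate lyases 4 and 2 of 13, and expansins 3 and 5 of 13. Pectinesterases and their inhibitors had 3 that rose and 7 that fell of 31. Xyloglucan endotransglucosylases (XTHs), which cut and rejoin hemicellulose, had 5 that rose and 9 that fell of 26, with a median of -0.35. The glycosidases and glucanases had 14 and 18 of 85, cellulose synthases 2 and 4 of 21, and arabinogalactan and fasciclin-like proteins 5 and 6 of 25. XTH 7, Solyc02g091920, fell from 21.1, 10.1 and 24.3 CPM to 0.507, 0.5896 and 0.511 CPM (log2 change -5.09, SE 0.38, adjusted p = 4.46e-06). Fasciclin-like arabinogalactan protein 9, Solyc07g053540, fell from 19.1, 11.96 and 22.1 CPM to 0.253, 0 and 0.227 CPM (log2 change -6.73, SE 0.48, adjusted p = 3.28e-06). Both were nearly lost at breaker in each of the 3 libraries. The arabinogalactan protein Solyc07g053640 did the reverse, from 22.9, 22.1 and 11.6 CPM to 153, 228 and 236 CPM (log2 change 3.45, SE 0.27, adjusted p = 6.17e-06). The pectin methylesterase PMEU1, Solyc03g123630, fell by 1.94 on the log2 scale (SE 0.29), the pectate lyase Solyc05g014000 by 2.88 (SE 0.47), the endoglucanase Solyc07g049300 by 3.52 (SE 0.49) and the cellulose synthase Solyc04g071650 by 1.31 (SE 0.21). Without breaker replicate 1 the changes of Solyc05g014000 and Solyc07g049300 were -3.54 and -4.41. A polygalacturonase inhibiting protein, Solyc09g014480, fell by 3.66 (SE 0.59), with 5.87, 5.21 and 19.8 CPM at mature green, or by 2.77 without mature green replicate 3.

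**Figure D4:**
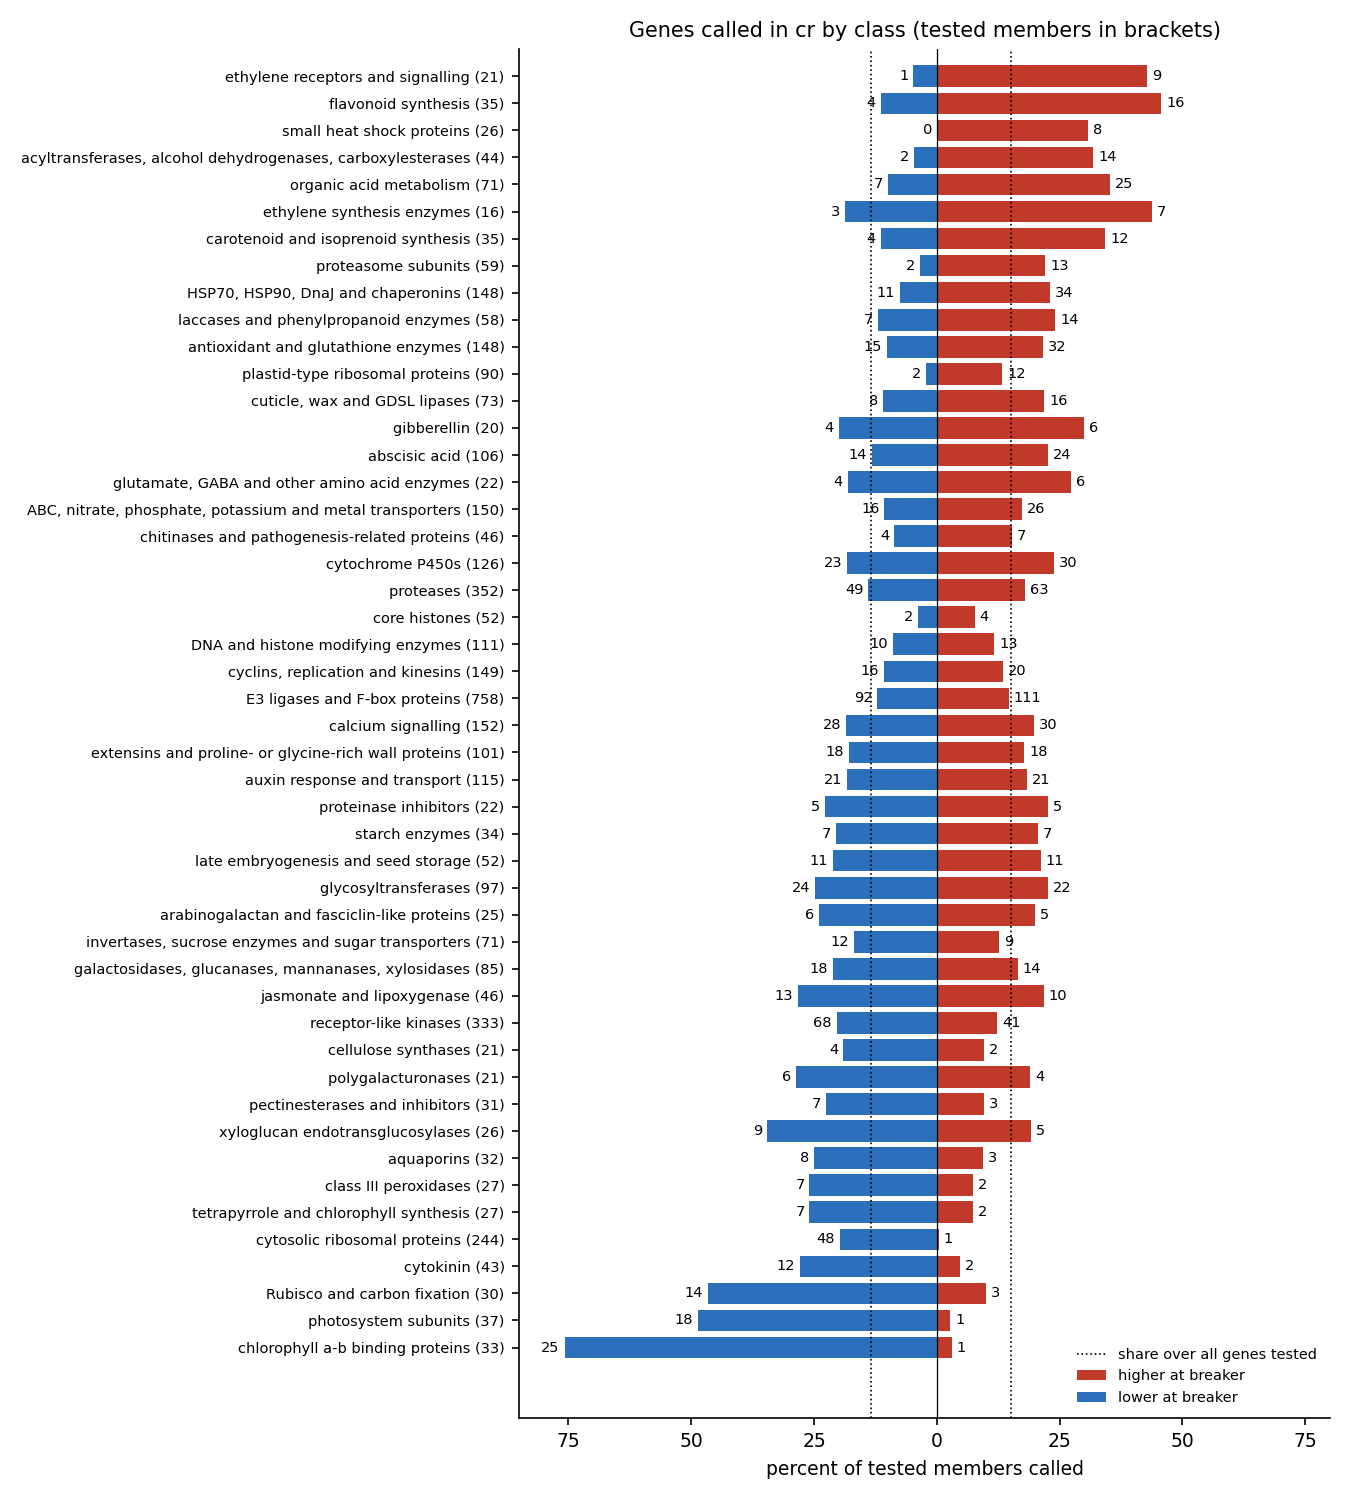
Percent of tested members that rose (red, right) or fell (blue, left) in cr for each class of at least 15 tested genes; numbers at the bars are gene counts, numbers in brackets are tested members, and dotted lines mark the shares over all genes tested (15.2% and 13.5%). Chlorophyll a-b binding proteins had 25 members that fell and 1 that rose, and ethylene receptors and signalling genes 1 and 9.

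The carotenoid pathway rose at its entry and in the steps to lycopene. Of 35 genes of carotenoid and isoprenoid synthesis 12 rose and 4 fell. PSY1 (Solyc03g031860, chr3:4234654-4238638), the phytoene synthase of fruit, had 827, 626 and 556 CPM at mature green and 2999.5, 6051 and 5855 CPM at breaker (log2 change 2.89, SE 0.29, adjusted p = 2.38e-05). ZISO (Solyc12g098710, chr12:65655952-65660347), the zeta-carotene isomerase, went from 58.4, 60.1 and 57.9 CPM to 326, 980.4 and 1165 CPM (log2 change 3.81, SE 0.40, adjusted p = 3.44e-05). Geranylgeranyl pyrophosphate synthase 2, Solyc04g079960, which makes the precursor, went from 3.67, 3.13 and 2.52 CPM to 29.5, 53.8 and 44.3 CPM (log2 change 3.77, SE 0.31, adjusted p = 7.55e-06). All 3 had separate ranges, with breaker replicate 1 the lowest of its stage. The desaturases PDS and ZDS moved little by comparison, by 0.37 (SE 0.09) and 0.53 (SE 0.10), and the isomerase CRTISO by 0.898 (SE 0.10). The lycopene epsilon-cyclase LCYE, which leads to lutein, fell from 5.68, 6.302 and 8.01 CPM to 1.52, 0.911 and 1.76 CPM (log2 change -2.25, SE 0.43, adjusted p = 0.00191). The beta-cyclases LCYB1 and CYCB did not pass, at -0.42 (adjusted p = 0.0782) and 0.47 (adjusted p = 0.0943), with overlapping stages.

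Transcripts of the photosynthetic machinery that passed the test mostly fell. Chlorophyll a-b binding proteins, the antennae of the photosystems, had 25 that fell and 1 that rose of 33, with a median of -1.61, the lowest of the classes with at least 15 tested genes. Photosystem subunits had 18 that fell and 1 that rose of 37, with a median of -0.50. Rubisco and carbon fixation enzymes had 14 and 3 of 30, and genes of tetrapyrrole and chlorophyll synthesis 7 and 2 of 27. A small subunit of Rubisco, Solyc02g063150 (chr2:33254134-33255178), had 114, 111 and 119 CPM at mature green and 40.2, 15.2 and 12.8 CPM at breaker (log2 change -2.33, SE 0.34, adjusted p = 0.000329). The chlorophyll a-b binding protein Solyc02g071010 went from 22.4, 13.6 and 35.8 CPM to 6.59, 1.39 and 2.27 CPM (log2 change -2.79, SE 0.53, adjusted p = 0.00196). Solyc03g005780, of the same class, went from 8.12, 5.61 and 14.3 CPM to 2.13, 0.268 and 0.227 CPM (log2 change -3.38, SE 0.61, adjusted p = 0.00141). In all 3 genes breaker replicate 1 kept the highest breaker level, and without it their changes were -3.04, -3.71 and -5.20. The protochlorophyllide reductase Solyc12g013710, which makes chlorophyllide in light, fell by 3.03 on the log2 scale (SE 0.52), and its change was -2.30 without mature green replicate 3 and -3.82 without breaker replicate 1. Against the trend, the antenna-domain gene Solyc12g056620 rose by 1.17 (SE 0.13) and the photosystem II 10 kDa gene Solyc12g017250 by 1.35 (SE 0.23).

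Genes that take chlorophyll apart had 4 that rose and 1 that fell of 10. SGR1 (Solyc08g080090, chr8:61521067-61523676), the stay-green protein that removes magnesium from chlorophyll, had 143, 203 and 98.7 CPM at mature green and 487, 497 and 609.8 CPM at breaker (log2 change 1.84, SE 0.24, adjusted p = 0.000159). Pheophytinase, Solyc01g088090, which cleaves the phytol tail, went from 155, 161 and 119 CPM to 319.8, 332 and 401 CPM (log2 change 1.27, SE 0.18, adjusted p = 0.000268). Both were higher in every breaker library. The gene described as lethal leaf spot 1, Solyc11g066440, which encodes a pheophorbide oxygenase, rose by 0.76 (SE 0.14). A second stay-green gene, Solyc04g063240, fell by 0.59 on the log2 scale (SE 0.15). Plastid-type ribosomal proteins had 12 that rose and 2 that fell of 90, or 7 and 5 without normalization factors, none by 1 or more on the log2 scale. Their called share of 15.6% lay below the 28.7% over all genes tested.

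Flavonoid synthesis had 16 genes that rose and 4 that fell of 35, with a median of 0.34. Chalcone synthase 1, Solyc09g091510 (chr9:66873902-66876060), the entry enzyme of the pathway, had 0.685, 0.645 and 1.07 CPM at mature green and 61.8, 91.5 and 194 CPM at breaker (log2 change 7.16, SE 0.90, adjusted p = 0.000114). Chalcone synthase 2, Solyc05g053550, went from 9.89, 22.4 and 21.8 CPM to 185, 188 and 335 CPM (log2 change 3.71, SE 0.51, adjusted p = 0.00022). Neither gene had overlapping stages, breaker replicate 3 was the highest library in both, and without it the change of chalcone synthase 1 was 6.57. Flavonoid 3'-monooxygenase, Solyc03g115220, rose by 2.702 (SE 0.43) and phenylalanine ammonia-lyase Solyc10g086180, which feeds phenylpropanoids, by 2.803 (SE 0.34). MYB12, Solyc01g079620, a regulator of fruit flavonols, went from 8.96, 10.97 and 14.8 CPM to 22.5, 19.9 and 31.2 CPM (log2 change 1.08, SE 0.28, adjusted p = 0.0128), with an adjusted p of 0.0524 without mature green replicate 1 and 0.0631 without breaker replicate 3. Laccases and phenylpropanoid enzymes had 14 that rose and 7 that fell of 58. A dirigent protein, Solyc01g111230, fell from 30.05, 20.99 and 37.3 CPM to 1.47, 0.5896 and 0.681 CPM (log2 change -4.98, SE 0.30, adjusted p = 1.38e-06).

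The class of cuticle, wax and GDSL lipase genes had 16 that rose and 8 that fell of 73, a called share of 32.9% against 28.7% over all genes tested. ECERIFERUM 1, Solyc01g088400 (chr1:75442453-75446958), an enzyme of wax alkane synthesis, had 5.97, 5.51 and 10.2 CPM at mature green and 82.8, 883 and 652 CPM at breaker (log2 change 6.22, SE 0.78, adjusted p = 0.000108). A fatty acid elongase-like gene, Solyc01g104210 (chr1:84974430-84975534), had no count in the 3 mature green libraries and 5.88, 24.3 and 36.5 CPM at breaker, at least 453-fold higher against a floor of 3 counts over the mature green group (adjusted p = 0.000194). In both genes the lowest breaker library was replicate 1. The ABC transporter Solyc04g010200 went from 0.685, 0.943 and 1.02 CPM to 11.95, 21.01 and 33.8 CPM (log2 change 4.64, SE 0.38, adjusted p = 7.73e-06), and an oleosin, Solyc06g060840, an oil body protein, from 3.28, 6.85 and 1.55 CPM to 111, 114 and 95.8 CPM (log2 change 4.78, SE 0.47, adjusted p = 2.02e-05). The oleosin's change was 5.47 without mature green replicate 2. The GDSL lipase Solyc11g006250 had 2.94, 3.87 and 38.1 CPM and 1.82, 0.7504 and 0.227 CPM. Its fall of 3.97 on the log2 scale (SE 1.16, adjusted p = 0.0221) rested on mature green replicate 3, without which the change was -1.83 (adjusted p = 0.212). It was -3.82 (adjusted p = 0.0765) without breaker replicate 2, -3.53 (adjusted p = 0.0883) without breaker replicate 3 and -4.90 (adjusted p = 0.0306) without breaker replicate 1.

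Genes linked to aroma synthesis rose more often than they fell. Acyltransferase, alcohol dehydrogenase and carboxylesterase genes had 14 that rose and 2 that fell of 44, although the median was 0.06. AAT1 (Solyc08g005770, chr8:617070-619717), which makes fruit esters, had 113, 95.02 and 75.95 CPM at mature green and 1477, 2438 and 2534 CPM at breaker (log2 change 4.505, SE 0.30, adjusted p = 3.24e-06), with an overlapping feature on the opposite strand. Lipoxygenase C (LOXC), which starts the route to fatty acid volatiles, went from 8.96, 11.2 and 13.1 CPM to 84.3, 185 and 260.5 CPM (log2 change 3.997, SE 0.41, adjusted p = 2.94e-05). ADH2, an alcohol dehydrogenase of fruit, went from 915, 955 and 1155 CPM to 2768, 2485 and 2518 CPM (log2 change 1.36, SE 0.19, adjusted p = 0.000259). The stages of these genes did not overlap. Lipoxygenase B, Solyc01g099190, rose by 2.52 (SE 0.29) and also overlaps a feature on the opposite strand. A glycosyltransferase described as ripening-related, Solyc10g085230, rose by 3.92 (SE 0.48). A serine decarboxylase-like gene, Solyc08g066250, had 0.294, 0 and 0.388 CPM and 12.5, 111 and 59.2 CPM (log2 change 8.02, SE 1.13, adjusted p = 0.000248), while Solyc08g068600, described alike, fell from 18.8, 5.81 and 6.99 CPM to 0.861, 0.322 and 0.397 CPM (log2 change -4.29, SE 0.62, adjusted p = 0.000301). The first had a change of 7.25 without breaker replicate 2 and 8.62 without mature green replicate 3, and the second -3.57 without mature green replicate 1.

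In primary metabolism, genes of organic acid metabolism had 25 that rose and 7 that fell of 71, all but 1 of them by less than 1 on the log2 scale, with a median of 0.26. Isocitrate dehydrogenase Solyc01g005560 rose by 0.87 (SE 0.10) and fumarate hydratase Solyc09g075450 by 0.91 (SE 0.14). Phosphoenolpyruvate carboxylase kinase 2, Solyc06g053620 (chr6:34239106-34240763), which activates the carboxylase, had 32.2, 67.7 and 32.4 CPM at mature green and 402, 571 and 566 CPM at breaker (log2 change 3.54, SE 0.32, adjusted p = 1.23e-05). Phosphoenolpyruvate carboxylase 2 itself, Solyc07g062530, had 2322, 2315 and 2104 CPM and 1458, 1497 and 1629 CPM and fell by 0.56 on the log2 scale (SE 0.13, adjusted p = 0.00778). All breaker libraries lay above the mature green range for the kinase and below it for the carboxylase. Starch enzymes had 7 and 7 of 34, with alpha-amylase Solyc05g007070 up by 0.78 (SE 0.16). Invertases, sucrose enzymes and sugar transporters had 9 that rose and 12 that fell of 71. Vacuolar invertase VI had 2492, 1922 and 1739 CPM and 2432, 3913 and 6089 CPM with overlapping stages (adjusted p = 0.0508), and the cell wall invertase LIN5 had a change of 0.62 (adjusted p = 0.0743). The SWEET transporter Solyc05g024260 rose by 2.63 (SE 0.31) and the SWEET transporter Solyc03g097580 fell by 3.57 on the log2 scale (SE 0.77), with a change of -2.36 without mature green replicate 3 and -4.39 without breaker replicate 1.

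Among enzymes of amino acids, arginase 2, Solyc01g091170, which splits arginine, fell from 32.7, 21.2 and 56.1 CPM to 1.72, 0.804 and 1.31 CPM (log2 change -4.83, SE 0.36, adjusted p = 4.46e-06). Tyrosine aminotransferase Solyc10g007110 rose from 6.56, 10.3 and 3.64 CPM to 45.03, 69.04 and 61.7 CPM (log2 change 3.099, SE 0.32, adjusted p = 3.36e-05). Both were clear of overlap. The family Aminotran_1_2, which holds it and the ACC synthases, had 13 that rose and 6 that fell of 28. The 2 named genes of glutamate decarboxylase, which makes GABA, moved apart. Solyc11g011920 fell by 1.46 on the log2 scale (SE 0.22), while Solyc03g098240 rose from 749, 849 and 557 CPM to 1187, 1241 and 1242 CPM (log2 change 0.77, SE 0.20, adjusted p = 0.0122), with an adjusted p of 0.0615 without mature green replicate 3.

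Hormone classes other than ethylene moved in mixed ways. Auxin response and transport genes had 21 that rose and 21 that fell of 115, and abscisic acid genes 24 and 14 of 106. Cytokinin genes had 2 that rose and 12 that fell of 43, with a median of -0.32, and the 6 tested genes described as brassinosteroid-related had 0 and 4. Gibberellin genes had 6 and 4 of 20, and jasmonate and lipoxygenase genes 10 and 13 of 46. SAUR69, Solyc09g008170 (chr9:1642663-1643034), a small auxin-induced protein, had no count at mature green and 1.82, 23.5 and 19.8 CPM at breaker, at least 306-fold higher by the same floor (adjusted p = 0.00108). Its neighbour Solyc09g008175, also of the SAUR family, went from 1.22, 0.198 and 0.485 CPM to 13.4, 41.00 and 41.9 CPM (log2 change 5.64, SE 0.59, adjusted p = 3.44e-05). In both genes breaker replicate 1 was the lowest breaker library, and the change of Solyc09g008175 was 6.52 without mature green replicate 1. The auxin-conjugating GH3 gene Solyc01g107390 rose by 3.08 (SE 0.28), and auxin response factor 7B, Solyc05g047460, fell by 0.85 on the log2 scale (SE 0.09).

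NCED1 (Solyc07g056570), the key enzyme of abscisic acid synthesis in fruit, had 244, 212 and 171 CPM at mature green and 418, 507 and 492 CPM at breaker (log2 change 1.18, SE 0.14, adjusted p = 8.55e-05). Solyc08g075490 fell from 25.01, 13.3 and 34.7 CPM to 2.58, 2.57 and 2.04 CPM (log2 change -3.34, SE 0.32, adjusted p = 1.74e-05). It is described as a 9-cis-epoxycarotenoid dioxygenase, but its protein match in the deposited annotation is a probable carotenoid cleavage dioxygenase 4. Neither NCED1 nor this gene had overlapping stages. The receptor PYL10, Solyc01g095700, fell by 1.09 on the log2 scale (SE 0.23). The phosphatase 2C gene Solyc03g006960 rose by 2.95 (SE 0.35), while the phosphatase 2C gene Solyc06g007190, at 16.4, 3.27 and 2.48 CPM and 0.405, 0.268 and 0.568 CPM, fell by 4.14 (SE 0.77), or by 2.78 without mature green replicate 1. Gibberellin 20-oxidase 3, Solyc11g072310, a synthesis enzyme, rose by 2.26 (SE 0.43), or 3.16 without mature green replicate 2, and so did gibberellin 2-oxidase 2, Solyc07g056670, which inactivates the hormone, by 2.29 (SE 0.53). Gibberellin-regulated protein 12, Solyc11g011210, went from 6.900, 7.34 and 9.85 CPM to 195, 245 and 263 CPM (log2 change 4.86, SE 0.34, adjusted p = 3.28e-06). The cytokinin response regulator Solyc05g006420 fell by 1.57 on the log2 scale (SE 0.30). The brassinosteroid receptor gene curl-3, Solyc04g051510, fell from 102, 94.5 and 109.8 CPM to 66.5, 51.2 and 46.4 CPM (log2 change -0.900, SE 0.13, adjusted p = 0.000289), and lipoxygenase D, Solyc03g122340, of jasmonate synthesis, from 45.3, 21.3 and 22.5 CPM to 9.37, 6.59 and 11.8 CPM (log2 change -1.68, SE 0.32, adjusted p = 0.00181).

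Several classes of receptors fell more often than they rose, and others did not. Receptor-like kinases had 68 that fell and 41 that rose of 333, with a median of -0.19. Genes with the LRRNT_2 domain, the cap of leucine-rich repeat receptors, had 11 and 1 of 41. The called shares of these groups, 32.7% and 29.3%, were near the 28.7% over all genes tested, and it was the direction of the calls that was uneven. NB-ARC genes, the intracellular immune receptors, had 21 that fell and 1 that rose of 97, a called share of 22.7% that lay below that over all genes but with nearly all calls in one direction. Genes with a TIR domain, found in another group of immune receptors, had 0 and 0 of 20, and lectin-domain receptor genes (B_lectin) 1 that fell and 2 that rose of 11. A leucine-rich repeat receptor-like protein, Solyc01g086920 (chr1:74077409-74078838), fell from 123, 72.2 and 126 CPM to 4.103, 2.25 and 2.16 CPM (log2 change -5.22, SE 0.35, adjusted p = 3.24e-06). The disease resistance gene Solyc04g007070 fell by 1.44 on the log2 scale (SE 0.35). A calmodulin binding protein-like gene, Solyc03g119250, had 38.1, 18.4 and 12.4 CPM and 4.05, 2.57 and 3.18 CPM (log2 change -2.81, SE 0.47, adjusted p = 0.000904), again highest in mature green replicate 1. Class III peroxidases had 7 that fell and 2 that rose of 27. Of these Solyc02g080530 fell from 219, 129 and 207 CPM to 30.8, 21.5 and 17.7 CPM (log2 change -2.99, SE 0.26, adjusted p = 1.01e-05). Aquaporins had 8 that fell and 3 that rose of 32. The tonoplast water channels 2.1, Solyc12g044330, and 1.1, Solyc06g074820, fell by 2.33 (SE 0.23) and 1.703 (SE 0.22) on the log2 scale.

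Protein synthesis and turnover moved by small steps. The called share was 20.1% for cytosolic ribosomal proteins, 25.4% for proteasome subunits and 26.8% for E3 ligases and F-box proteins. Each was under the 28.7% over all genes tested. Cytosolic ribosomal proteins had 48 that fell and 1 that rose of 244, with a median of -0.24, and 2 that fell by 1 or more on the log2 scale. The number that fell was 103 without normalization factors and 73 with upper quartile factors. Of those that fell by 1 or more, Solyc01g102310 had 115, 117 and 150.2 CPM and 56.6, 51.5 and 43.6 CPM (log2 change -1.33, SE 0.18, adjusted p = 0.00017). It is described as a 60S protein L34 gene, but has no protein match in the deposited annotation and a listed length of 2763 bases. Proteasome subunits had 13 that rose and 2 that fell of 59, or 7 and 2 without normalization factors, among them the 26S subunit 5 gene Solyc07g062860 with 1.01 (SE 0.12). Ubiquitin-conjugating enzymes (UQ_con) had 15 and 2 of 50, adaptor complex subunits of vesicle coats (Adap_comp_sub) 7 and 0 of 10, and small GTPases of the Ras family 18 and 4 of 62. The RABA3 gene Solyc01g096220 went from 32.6, 31.3 and 13.2 CPM to 92.6, 102 and 107 CPM (log2 change 1.97, SE 0.28, adjusted p = 0.000246). For E3 ligases and F-box proteins, at 111 and 92 of 758, the direction depended on the scaling of the libraries, with 78 that rose and 126 that fell when no normalization factors were used.

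Chaperone genes rose more often than they fell. Small heat shock proteins had 8 that rose and 0 that fell of 26, with a median of 0.42, and the larger chaperones 34 and 11 of 148. Their called shares, 30.8% and 30.4%, were near the 28.7% over all genes tested. A small heat shock protein, Solyc03g082420 (chr3:46921671-46922757), had 35.9, 34.9 and 16.8 CPM at mature green and 351, 387 and 495 CPM at breaker (log2 change 3.81, SE 0.39, adjusted p = 2.62e-05). A class I heat shock protein, Solyc12g042830, went from 2.300, 1.69 and 0.631 CPM to 10.1, 13.7 and 21.1 CPM (log2 change 3.28, SE 0.48, adjusted p = 0.000334). Every breaker library exceeded every mature green library in both. Core histones were among the quietest classes, with 4 that rose and 2 that fell of 52, a called share of 11.5%, none by 1 or more on the log2 scale. Universal stress proteins (Usp) had 8 that rose and 2 that fell of 18. Antioxidant and glutathione enzymes had 32 and 15 of 148, a called share of 31.8% near that over all genes tested. Without normalization factors these enzymes had 23 and 24. PPR proteins, which process organelle RNA, had 1 and 8 of 87, a called share of 10.3%.

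Some genes were read at only one stage. Of the tested genes 38 had no count at mature green in cr, 18 of them called, and 12 had none at breaker, 5 of them called, and 5 of these had none at either stage. Beside the elongase-like gene and SAUR69, Solyc03g095880, described as an unknown protein and matched in the deposited annotation to a photosystem I apoprotein, had 3.39, 9.59 and 11.7 CPM at breaker, at least 168-fold higher (adjusted p = 5.42e-05). The MATE transporter gene Solyc04g074840 had 0.659, 6.65 and 5.39 CPM, at least 86.3-fold higher (adjusted p = 0.00131). In the other direction, C-repeat binding factor 1, Solyc03g026280, an AP2 factor of the cold response, had 3.67, 0.347 and 0.243 CPM at mature green and no count at breaker, at least 26.5-fold lower (adjusted p = 0.0166). Its mature green counts were 75, 7 and 5, so that replicate 1 held most of them, and without it the adjusted p was 0.046. MYC2, Solyc01g096370, a jasmonate factor, was at least 9.72-fold lower, with counts of 11, 4 and 17 at mature green.

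The same step in WT gave a frame for these values. There 9498 genes (48.3%) passed, 4600 that rose and 4898 that fell, or 2846 and 6784 without scaling factors. The difference between the 2 stage changes, cr minus WT, passed for 2585 genes (13.1%), 1677 (8.53%) positive and 908 (4.62%) negative, or 2100 and 568 without scaling factors. Of the 5645 genes that changed in cr, 4427 (78.4%) had no such call, which does not show that they changed alike. Among genes called in both lines in the same direction and different by this test, the change was smaller in cr in 812 and larger in cr in 43. A further 1335 genes with a called difference changed in WT and had no call in cr. NOR, ACS2, PG2A, PSY1 and E8 had no called difference, with adjusted p of 0.166, 0.237, 0.822, 0.552 and 0.0856. The core histones, quiet in cr, had 1 that rose and 32 that fell in WT, and 20 of them had a positive difference. The cuticle class had 8 that rose and 36 that fell in WT, against 16 and 8 in cr.

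Differences toward a larger change in cr were fewer. In 351 genes the test was passed and the change in cr was called and larger in size than that in WT, whatever its direction. WT had no call in 253 of them, and in 43 both lines changed in the same direction. The rest changed in opposite directions and are also among the 110 genes given further on. A glycosyltransferase family 8 gene, Solyc08g078650 (chr8:60517470-60523697), had 7.44, 10.3 and 6.99 CPM at mature green and 52.7, 71.6 and 56.3 CPM at breaker (log2 change 2.87, SE 0.20, adjusted p = 3.24e-06), against 0.51 in WT, and the difference was 2.36 (adjusted p = 0.000218). The asparaginase gene Solyc04g078460 had 5.53, 6.997 and 7.62 CPM and 88.2, 165 and 113 CPM (log2 change 4.18, SE 0.32, adjusted p = 5.55e-06), against 1.196 in WT (difference adjusted p = 0.000732), with an overlapping feature on the opposite strand. Both genes rose in every breaker library of cr. The nitrate transporter family gene Solyc03g113430 (NRT1/PTR family) went from 19.04, 19.9 and 14.1 CPM to 47.01, 46.5 and 47.98 CPM, by 1.42 (SE 0.14), against -0.23 in WT (difference adjusted p = 0.000282). The bZIP gene Solyc01g109880 rose by 1.02 (SE 0.13), against -0.26 in WT (difference adjusted p = 0.000752). For the oleosin named above the WT value was 1.26, for MAN4a 4.59 and for EXP1 3.24, with differences at adjusted p of 0.00232, 0.0477 and 0.0345. The small heat shock protein Solyc03g082420 was a case of the reverse, with 6.73 in WT (difference adjusted p = 0.00295).

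**Figure D5:**
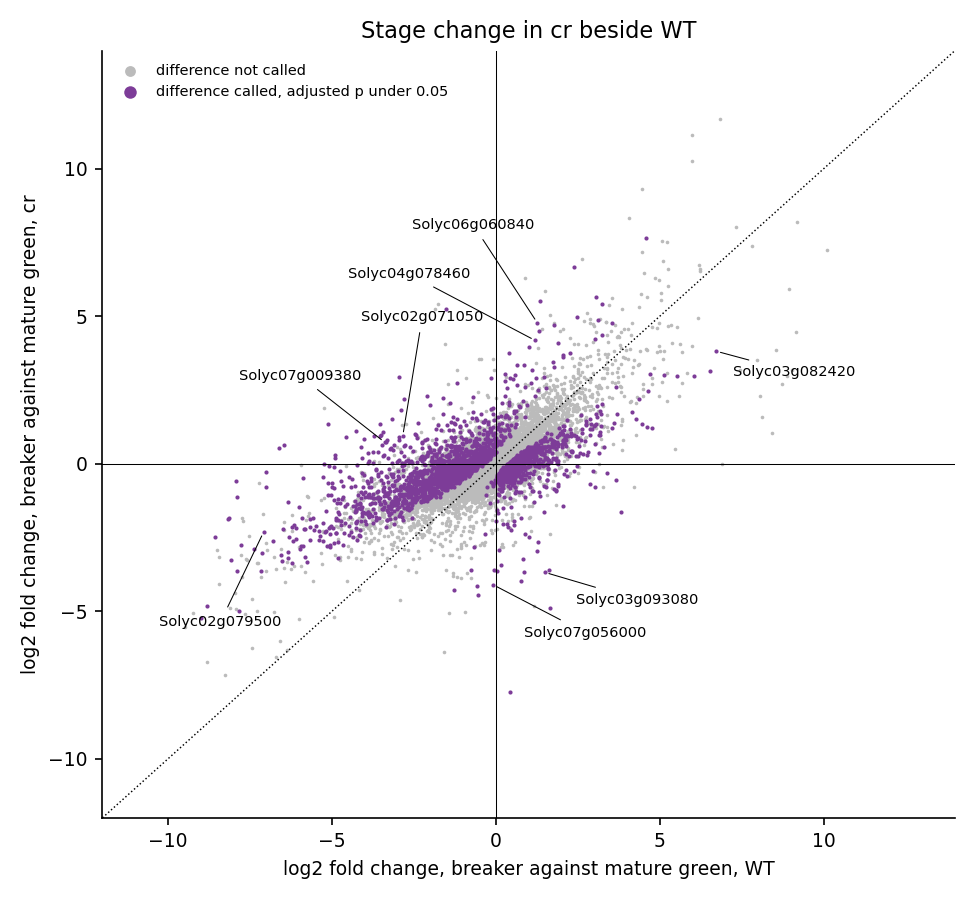
Log2 fold change between mature green and breaker in cr (vertical axis) against that in WT (horizontal axis), 1 point per tested gene; purple points are the 2585 genes whose difference passed an adjusted p under 0.05, and the dotted line marks equal changes. Solyc07g009380 lies at 0.73 in cr and -3.39 in WT.

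In 110 genes both lines had a called change in opposite directions and the difference was called: 71 rose in cr and fell in WT, and 39 did the reverse. The XTH gene Solyc07g009380 (chr7:4404435-4406818) had 105, 82.9 and 85.2 CPM at mature green and 186, 145 and 121 CPM at breaker in cr (log2 change 0.73, SE 0.20, adjusted p = 0.0166), against -3.39 in WT (difference adjusted p = 1.2e-05). Its rise in cr had an adjusted p of 0.0601 to 0.0652 without any 1 of 3 cr libraries, mature green replicates 2 and 3 and breaker replicate 1. The purine permease Solyc02g071050 went from 12.7, 15.4 and 9.85 CPM to 27.96, 21.98 and 23.1 CPM (log2 change 0.94, SE 0.17, adjusted p = 0.00156), against -2.84 in WT (difference adjusted p = 1.2e-05). The fasciclin-like gene Solyc07g065540 rose by 0.81 (SE 0.19), against -2.95 in WT, and the glycosyl hydrolase gene Solyc06g076780 by 1.34 (SE 0.20), against -1.23. The subtilisin-like protease Solyc10g084560 rose by 0.87 (SE 0.16), against -1.33. On the other side, the pectin lyase-like gene Solyc08g082170 went from 67.04, 66.6 and 75.5 CPM to 42.8, 36.9 and 40.8 CPM (log2 change -0.79, SE 0.10, adjusted p = 0.000151), against 1.05 in WT (difference adjusted p = 2.13e-05). The XTH gene Solyc03g093080 had 12.3, 3.97 and 2.57 CPM and 0.152, 0.697 and 0.625 CPM, a change of -3.68 (SE 0.83) against 1.498 in WT, or of -2.74 without mature green replicate 1. Another XTH gene, Solyc07g056000, had 24.1, 5.61 and 4.56 CPM and 0.7598, 0.643 and 0.568 CPM, a change of -4.102 (SE 0.74) against -0.08, or of -2.94 without that library. In neither of these XTH genes did the WT change pass (adjusted p = 0.0675 and 0.926). In both, the stages did not overlap and mature green replicate 1 was the highest library.

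By length-corrected level (FPKM as deposited, averaged over the 3 libraries), transcripts of 3 genes chosen after their levels were seen stood high at both stages. The fruit-specific protein Solyc07g049135 had 7151 FPKM at mature green and 9581 FPKM at breaker, the highest of all genes at each stage. Its levels were 4802, 4332 and 3976 CPM and 4949.9, 6301 and 6439 CPM, and the call of its rise of 0.43 (adjusted p = 0.0475) was lost with any of 8 of the 12 libraries left out. The late embryogenesis protein gene Solyc09g075210 (Lea5) had 5806 FPKM and 3121 FPKM and fell by 0.88 on the log2 scale (SE 0.23, adjusted p = 0.0131). Abscisic stress-ripening protein 3, Solyc04g071610, had 4911 FPKM and 5620 FPKM (adjusted p = 0.408). E8 went from 188 FPKM to 3311 FPKM and PSY1 reached 2551 FPKM, eighth of all genes, at breaker.

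Markers of other tissues were read beside these results. Of 211 genes described as seed storage, oleosin or late embryogenesis proteins 96 had no count in cr and 64 were tested, of which 12 rose and 13 fell. Their summed level ran from 6754 to 8157 CPM at mature green and from 4169 to 5658 CPM at breaker. Lea5 alone had 5762, 4518 and 5311 CPM at mature green and 3141, 3408 and 1894 CPM at breaker. Xylem markers had 3 that rose and 5 that fell of 23 tested, with 22 of 65 at 0, and summed to between 430.2 and 497 CPM at mature green and 336 and 406 CPM at breaker. Epidermis markers had 7 that rose and 3 that fell of 22, with 14 of 40 at 0. Their sum went from between 1526 and 1790 CPM to between 2011 and 2750 CPM. These are cutin and wax genes, as in the cuticle class, so their sum is no separate measure of epidermis. ECERIFERUM 1 alone had 5.97, 5.51 and 10.2 CPM at mature green and 82.8, 883 and 652 CPM at breaker. Pollen and anther genes had 4 and 5 of 19, with 21 of 57 at 0, and sums of 720.1 to 781 CPM and 884 to 1048 CPM. The list for ripening and green pericarp had 5 that rose and 2 that fell of 8 tested, with 1 of 12 at 0. It summed to between 2217 and 2757 CPM at mature green and to 8823, 16664 and 16322 CPM at breaker. Its genes, such as E8 and PSY1, were chosen for their change in ripening, so the sum restates the stage change and cannot mark a tissue. The sums are not shares of tissues, since the seed and epidermis lists hold oleosin and cuticle genes themselves. The part of tissue shares in the changes of those genes was not tested.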

How the data were processed

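RNA was extracted with Trizol from frozen pericarp, per the labels' protocols. Tools listed in the submitters' processing notes, with no role given, are HISAT2 2.0.5, fastp 0.23.1, edgeR 3.22.5, DESeq2 1.20.0 and featureCounts 1.5.0-p3. The authors deposited 1 table of raw read counts per gene, with coordinates on the SL4.0 build, and 1 table of FPKM values, which correct for gene length and depth. The sources used here give neither the strand setting nor how multiply matching reads were counted, so values of overlapping genes and of near-identical copies are uncertain.

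The low-count filter was filterByExpr of edgeR, with min.count 10 and min.total.count 15, and the 19664 genes kept held 99.9% of the counts. Libraries were scaled by TMM. The stage change in cr, that in WT and their difference were tested with edgeR 4.0.16 (glmQLFit and glmQLFTest, R 4.3.3) in 1 fit with 4 group coefficients over 12 libraries, so the groups share one estimate of the spread. Adjustment was by Benjamini-Hochberg, and the SE was taken as the size of the log2 fold change over the square root of F. Features with no Solyc identifier (1092 tested, 269 called) were tested and are not named. Bounds against a group with no count use a floor of 3 counts over the group and cover counting error only. No 2 replicates agreed within sampling noise. Scripts were first tested on simulated counts.

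The 54 classes are patterns over the deposited descriptions and can hold genes of other function; 50 ripening genes were chosen by name, and 2 others chosen so are not analysed here. Members and lists were chosen with earlier results of these data known, and no class was tested as a set. Genes named are those 50; in each class or family the called genes of largest change, up to 3 each way, with at least 5 CPM and no overlap between stages; the 10 of largest change each way; the genes with the smallest p for the difference; and those read at one stage only. A further 3 genes were chosen after their levels were seen. The fit has no replicate block, because nothing in the labels says that a replicate number marks a shared plant or day. Same-numbered libraries of the 2 stages did not deviate together (r = -0.15, 0.05 and -0.06), but so few libraries cannot exclude a pairing. Alternatives were DESeq2 1.42.0, other scalings and filters, the block, the 6 cr libraries alone and each library left out.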

Additional observations from a re-analysis of the deposited data

Results flagged for a closer look

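The difference of the stage change, cr minus WT, passed edgeR's test for 2585 genes, 13.1% of those tested. Among them were 53 genes examined by name, by the naming rule or, for Solyc07g049135 and Lea5, for their level. The rule picked some genes by the smallest p of this same test, so the count of 53 is no result about them. The values below are that difference on the log2 scale. Some passed narrowly in that test. Adjusted p was 0.0477 for MAN4a, 0.0456 for C-repeat binding factor 1, 0.0448 for Solyc09g008175 and 0.0447 for Solyc01g096220. It was 0.0400 for LIN5, whose own change was called in neither line.

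Among regulators the difference was -0.76 for FUL1, -0.38 for TAGL1 and 2.77 for GLK2. It was 2.37 for MYB1R1 (Solyc03g113620), 4.82 for the leucine zipper gene Solyc02g087840 and 1.53 for SBP factor 15 (Solyc10g078700). It was 1.28 for the bZIP gene Solyc01g109880, -0.96 for auxin response factor 7B (Solyc05g047460) and 2.07 for CONSTANS-like 4 (Solyc12g096500). For C-repeat binding factor 1 (Solyc03g026280) it was -8.17, a fitted value that depends on the prior count because no breaker library of cr had a count. FUL1 and TAGL1 rose less in cr than in WT, and GLK2, MYB1R1, the leucine zipper gene, SBP factor 15 and CONSTANS-like 4 fell less.

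Among wall genes it was 3.07 for MAN4a, 1.13 for EXP1 and -2.12 for CEL2. It was 4.49 for the pectate lyase Solyc05g014000, 2.07 for PMEU1 (Solyc03g123630) and -1.84 for the pectin lyase-like gene Solyc08g082170. The XTH genes Solyc07g056000, Solyc03g093080 and Solyc07g009380 had -4.02, -5.18 and 4.12. The arabinogalactan gene Solyc07g053640 had 1.71 and the fasciclin-like gene Solyc07g065540 3.77. The glycosyltransferase family 8 gene Solyc08g078650 had 2.36 and the glycosyl hydrolase gene Solyc06g076780 2.57.

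Among pigment and plastid genes it was 1.52 for geranylgeranyl pyrophosphate synthase 2 (Solyc04g079960), -0.81 for PDS and -0.92 for ZDS. It was 2.42 for the carotenoid dioxygenase Solyc08g075490 and 2.55 for the Rubisco small subunit Solyc02g063150. Of genes outside these groups, the dirigent protein Solyc01g111230 had 2.84, the oleosin Solyc06g060840 3.52 and the serine decarboxylase-like gene Solyc08g068600 -3.001.

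Among metabolic genes and transporters it was 1.58 for phosphoenolpyruvate carboxylase 2 (Solyc07g062530), 1.12 for isocitrate dehydrogenase (Solyc01g005560) and 3.99 for arginase 2 (Solyc01g091170). It was 1.53 for the glutamate decarboxylase Solyc11g011920, 2.99 for the asparaginase Solyc04g078460 and 1.19 for LIN5. The nitrate transporter family gene Solyc03g113430 had 1.64 and the purine permease Solyc02g071050 3.78.

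Among hormone, stress and other genes it was 2.596 for the SAUR gene Solyc09g008175, -3.56 for the phosphatase 2C gene Solyc06g007190 and 1.75 for gibberellin-regulated protein 12 (Solyc11g011210). It was -1.75 for lipoxygenase D (Solyc03g122340), 3.78 for the leucine-rich repeat protein Solyc01g086920 and -2.14 for the calmodulin binding protein-like gene Solyc03g119250. The small heat shock protein Solyc03g082420 had -2.92, and the H2A histones Solyc09g074300 and Solyc11g073250 had 1.64 and 0.77. The RABA3 gene Solyc01g096220 had 1.26, the peroxidase Solyc02g079500 4.77 and the protease Solyc10g084560 2.201. The fruit-specific protein Solyc07g049135 had -0.83 and Lea5 (Solyc09g075210) 1.81.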

How the results depend on the processing

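The count of genes called between the stages in cr, 5645, lay between 3691 (without mature green replicate 3) and 6041 (without WT breaker replicate 3) with 1 library left out, and was 5985 without breaker replicate 1. The count in WT, 9498, lay between 8087 and 9844, and that of the difference, 2585, between 1828 and 2657. With the replicate number as a block, which the labels do not name as a pairing, the counts were 4941, 8978 and 2044. DESeq2 gave 6102 for cr and 3210 for the difference, and the 6 cr libraries alone gave 5379. Without normalization factors the median of all genes in cr moved to -0.10 and 37.5% of calls were higher, against 53.1%. With upper quartile factors 44.7% were higher, so under both scalings most calls in cr were lower. For the difference, 78.7% of calls were positive without factors, against 64.9%. In WT without factors 29.6% were higher, against 48.4%. Without factors, cytosolic ribosomal proteins had 103 that fell, and proteases, with 63 higher and 49 lower, had 49 and 67. None of the 165 named genes reversed direction where its change was called in the main fit or in the alternative. Changes called in neither could switch sign, as those of ACO4, HB1 and EIL1 in cr did with a library left out. In cr, 9 of the 165 lost their call at least once with a library left out and 5 under another setting. For the difference 16 and 10 did. No count over the 3 libraries of a stage allows a level of up to 0.0490 CPM at mature green and 0.0536 CPM at breaker.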
